A study of Mus musculus with 6 samples.

Results

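The 35 genes described here encode succinate dehydrogenase (complex II), cytochrome bc1 (complex III) with cytochrome c, and the mitochondrial ATP synthase, together with a few assembly factors and the inhibitor of ATP synthase. They were taken from a list of gene symbols, and all 35 were measured, out of 18193 genes in all. Atp5f1 and Atp5s are named Atp5pb and Dmac2l in the annotation, and the older names are kept here. The caAkt group was 3 arrays of ventricular tissue from mice that express a constitutively active form of the kinase Akt in the heart only, and the wild-type group was 3 such arrays from mice without it. All mice were 8 weeks old. The labels name no promoter for the transgene and no strain or sex. They do not say that each array was a separate heart either, so the p-values measure the spread between these arrays, which may be technical.

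Complex II oxidises succinate in the tricarboxylic acid cycle and passes the electrons to coenzyme Q. Complex III moves them on to cytochrome c and pumps protons, and ATP synthase uses the proton flow through its membrane ring to make ATP in its F1 head. Heart muscle depends on this pathway for most of its ATP, and the subunits studied here are encoded in the nucleus.

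RefSeq promoter windows (build GRCm38.p6), from 250 bases before to 50 after the start, were found for 29 of the 35 genes, and 3 are shown. A link between promoter letters and the changes in signal was not tested. They were searched on both strands for the letters GCGCA, any base, then GCGC (NRF1), CCGGAAG (ETS factors such as GABP), TNAAGGTCA (estrogen-related receptors) and AAGATGGC (YY1), all factors known to act on respiratory genes. For each complex, the window printed is that of the gene lower in caAkt hearts that held the most of these motifs, with ties going to the larger fall. The windows lie at chr9:50603800-50604099, minus strand (Sdhd), chr9:108936398-108936697, plus strand (Uqcrc1) and chr16:84834927-84835226, minus strand (Atp5j). Atp5j had 2 windows, and the one holding the most of these motifs was taken. Capitals mark the matches.
Sdhd: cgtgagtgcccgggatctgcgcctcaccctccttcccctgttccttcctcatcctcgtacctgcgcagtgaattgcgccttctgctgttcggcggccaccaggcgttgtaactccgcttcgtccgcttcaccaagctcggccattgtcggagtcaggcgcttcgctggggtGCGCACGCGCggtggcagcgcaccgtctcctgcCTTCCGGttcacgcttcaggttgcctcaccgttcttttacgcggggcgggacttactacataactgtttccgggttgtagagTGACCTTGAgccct
Uqcrc1: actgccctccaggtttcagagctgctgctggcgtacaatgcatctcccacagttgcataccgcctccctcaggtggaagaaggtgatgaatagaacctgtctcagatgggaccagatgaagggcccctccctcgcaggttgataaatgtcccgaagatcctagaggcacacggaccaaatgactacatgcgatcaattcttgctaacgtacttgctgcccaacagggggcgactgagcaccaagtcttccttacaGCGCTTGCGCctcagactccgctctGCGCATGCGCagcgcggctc
Atp5j: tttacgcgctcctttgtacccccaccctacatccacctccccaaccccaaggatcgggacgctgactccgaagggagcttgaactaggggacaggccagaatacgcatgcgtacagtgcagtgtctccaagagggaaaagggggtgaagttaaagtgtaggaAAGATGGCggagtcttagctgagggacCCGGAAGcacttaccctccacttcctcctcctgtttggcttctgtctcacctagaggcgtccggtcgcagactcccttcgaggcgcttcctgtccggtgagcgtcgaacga

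In Sdhd the capitals are the NRF1 letters 79 bases before the start, the ETS letters on the other strand 46 bases before it, and the receptor letters on the other strand after it. In Uqcrc1 both runs are NRF1 letters after the start, and the second run reads the same motif on both strands. In Atp5j they are the YY1 and ETS letters, 88 and 61 bases before the start. No printed match overlapped one of another motif. NRF1 letters were in 10 of the 29 genes (34.5%), against 8.63% of measured genes with a window and 4.60% of all windows. ETS letters were in 12 (41.4%), against 15.03% and 8.86%. Receptor letters were in 2 (6.90%, against 1.204% and 1.28%) and YY1 letters in 3 (10.3%, against 4.085% and 2.75%). NRF1 or ETS letters were in 19 of the 29 genes (65.5%), against 21.7% of measured genes with a window. They were in 10 of 14 windowed genes that were lower in caAkt hearts and in 9 of 15 that were not called, a difference that was not tested. A match describes letters only.

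Values are log2 signals of probe sets, and each gene is given by its brightest probe set. Log2 fold changes are the caAkt mean less the wild-type mean, each ± its moderated standard error from limma, and a gene was called lower or higher at a Benjamini-Hochberg adjusted p under 0.05 over all genes. Signals are not compared between genes as transcript amounts, since probe sets differ in brightness. The brightest Akt1 probe set stood at 15.16, 15.10 and 15.08 on the caAkt arrays against 9.79, 9.79 and 10.18 on the wild-type arrays (log2 fold change 5.19). Of the 3 other Akt1 probe sets, 1 was lower (-0.29 ± 0.077, adjusted p = 0.0281 by limma over all probe sets). The highest signal of an array was 15.32 to 15.45, which is the top of the scale. Cardiomyocyte markers were bright in both groups, with a median signal of 15.02 in caAkt and 15.22 in wild-type hearts.

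Of the 35 genes, 16 were lower in caAkt hearts and 0 were higher by limma, where 12.4% of all genes were lower and 16.1% higher. At an unadjusted p under 0.05 there were 20 lower and 0 higher, where 3476 of all 18193 genes were lower and 3680 higher. The log2 fold change was negative for 32 of the 35 genes and for 57.4% of all genes. Its median over the 35 genes was -0.19, with a range of -0.75 to 0.083, and the median over all genes was -0.036. All caAkt arrays lay below all wild-type arrays for 22 of the genes, as they did for 21.1% of all genes. Without 1 array, 11 to 18 of the 35 were lower, the fewest without wild-type replicate 2 and the most without wild-type replicate 3.

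**Figure D1:**
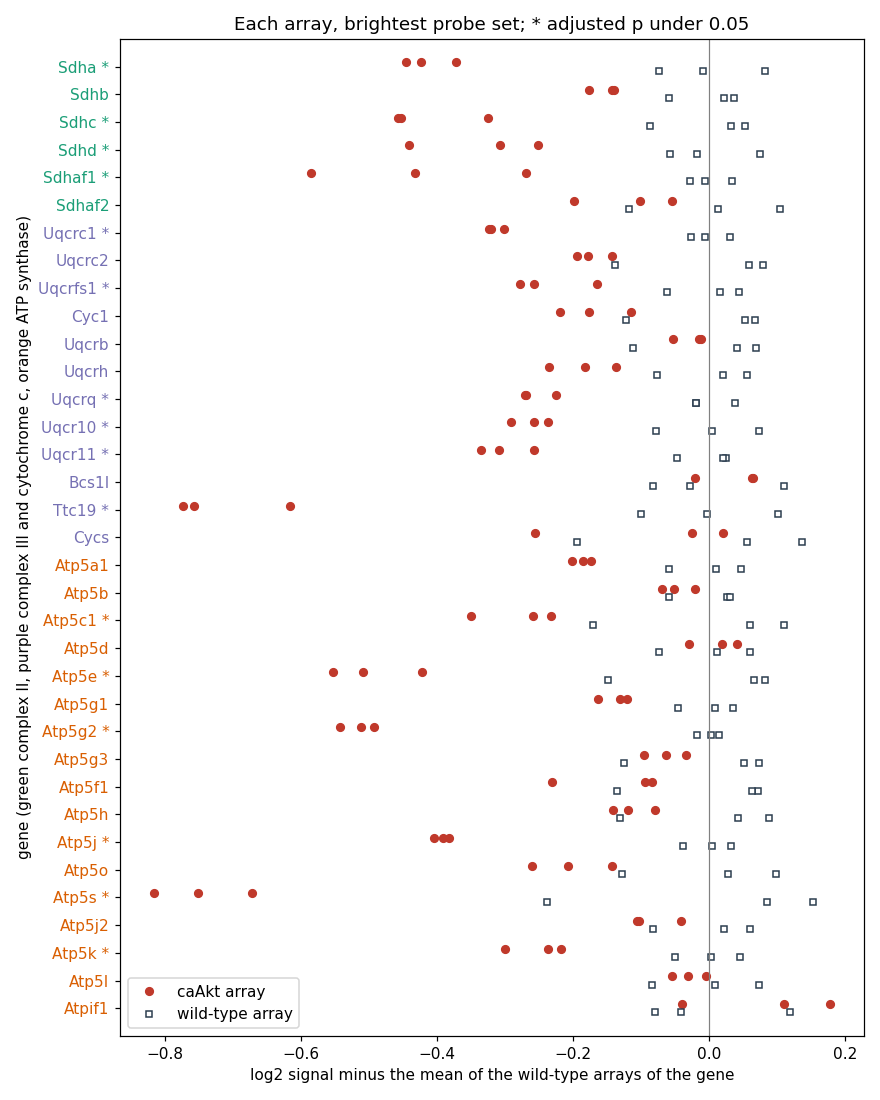
Log2 signal of each array minus the wild-type mean of the gene, at the brightest probe set of each of the 35 genes, for the 3 caAkt and the 3 wild-type arrays, with * where the adjusted p was under 0.05. The caAkt arrays lie wholly below the wild-type arrays for 22 genes, with the largest falls for Atp5s (-0.75) and Ttc19 (-0.72), and with arrays centred on cardiomyocyte markers 17 genes keep a negative sign.

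Marker genes of the cell types of the ventricle were read beside these counts. Of 9 cardiomyocyte markers 4 were lower and 0 higher, with a median log2 fold change of -0.20 and a range of -0.41 to 0.13. Their summed signal (log2) was 18.09 to 18.11 on the caAkt arrays against 18.15 to 18.28 on the wild-type arrays. Macrophage markers were higher for 8 of 8 genes, with summed signals of 14.62 to 14.89 on the caAkt arrays against 13.11 to 13.39 on the wild-type arrays. Fibroblast markers were higher for 7 of 8, with summed signals of 16.30 to 16.45 on the caAkt arrays against 14.82 to 15.15 on the wild-type arrays. Endothelial markers were lower for 3 of 7, with summed signals of 12.72 to 12.87 on the caAkt arrays against 13.04 to 13.06 on the wild-type arrays. Of 4 adipocyte markers 2 were measured and 1 was lower, with summed signals of 6.33 to 6.44 on the caAkt arrays against 7.05 to 7.97 on the wild-type arrays. The part of these cell types in the results was not tested, and in whole tissue fewer cells of a type and less RNA per cell cannot be told apart.

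With each array centred on the cardiomyocyte markers, a setting chosen after the data were seen, every log2 fold change moved up by 0.19 and the median over all genes became 0.15. The median of the 35 genes was then 0.0016. Sdha, Sdhc, Ttc19, Atp5e, Atp5g2 and Atp5s, 6 of the 35, were lower on that scale, where 5.57% of all genes were. Over all genes 1013 were then lower and 5944 higher, against 2254 and 2929 before centring. Bcs1l and Atpif1 were higher, and the other 10 called genes were no longer called. In wild-type hearts the signals of these markers ran from 13.10 (Ryr2) to 15.38, so that part of them lie near the top of the scale.

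Complex II was lower at 4 of its 6 genes, with a median log2 fold change of -0.37. Sdha encodes the flavoprotein that oxidises succinate, and its signals were 13.29, 13.26 and 13.34 on the caAkt arrays against 13.79, 13.70 and 13.64 on the wild-type arrays. The groups did not overlap, and the log2 fold change was -0.41 ± 0.070 (adjusted p = 0.00202, limma), a signal 24.9% lower. A dimmer Sdha probe set gave a larger fall, -0.76 ± 0.077 (adjusted p = 0.000205 over all probe sets).

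Sdhb, the iron-sulphur subunit that takes the electrons on, had signals of 14.36, 14.32 and 14.36 in caAkt hearts against 14.52, 14.54 and 14.44 in wild-type hearts. Here too the groups did not overlap, but the log2 fold change of -0.15 (95% interval -0.30 to -0.0047) was not called (adjusted p = 0.116, limma). Sdhc and Sdhd, which anchor the complex in the membrane, were both lower.

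Sdhc had signals of 12.82, 12.69 and 12.69 on the caAkt arrays against 13.20, 13.18 and 13.06 on the wild-type arrays. All of its caAkt values lay below all wild-type values, with a log2 fold change of -0.41 ± 0.074 (adjusted p = 0.00281, limma), and the other Sdhc probe set gave -0.37 ± 0.075. Sdhd had signals of 12.95, 12.82 and 13.01 on the caAkt arrays against 13.34, 13.24 and 13.20 on the wild-type arrays. Its groups were separate as well, with a log2 fold change of -0.33 ± 0.077 (adjusted p = 0.0104, limma), a call lost with the mean of its probe sets (adjusted p = 0.0577).

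Sdhaf1, an assembly factor for the iron-sulphur subunit, had signals of 8.72, 9.04 and 8.87 on the caAkt arrays against 9.34, 9.30 and 9.28 on the wild-type arrays. The caAkt arrays scattered more than the wild-type arrays but all lay below them, and the log2 fold change was -0.43 ± 0.088 (adjusted p = 0.00560, limma). Sdhaf2, needed to attach flavin to the Sdha protein, overlapped between the groups at 10.86 to 11.01 in caAkt and 10.94 to 11.17 in wild-type hearts, a difference of -0.12 (95% interval -0.30 to 0.064, adjusted p = 0.311, limma).

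In complex III with cytochrome c, 6 of 12 genes were lower, with a median log2 fold change of -0.21, and 3 of 12 were lower without wild-type replicate 2. Uqcrc1, a core protein on the matrix side, had signals of 13.82, 13.82 and 13.84 on the caAkt arrays against 14.12, 14.18 and 14.14 on the wild-type arrays. The arrays of each group lay close together and the groups well apart, with a log2 fold change of -0.32 ± 0.063 (adjusted p = 0.00496, limma). The other core protein, Uqcrc2, did not overlap between groups either but was not called (-0.17 ± 0.078, adjusted p = 0.136, limma); without wild-type replicate 3 it was (-0.24, adjusted p = 0.0366).

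Uqcrfs1, the Rieske iron-sulphur protein, had signals of 13.91, 13.93 and 14.02 on the caAkt arrays against 14.23, 14.20 and 14.13 on the wild-type arrays. The groups did not overlap and the log2 fold change of -0.23 ± 0.069 was called (adjusted p = 0.0327, limma). It stayed so without caAkt replicate 3 or wild-type replicate 3 and was lost without any of the other 4 arrays, with an adjusted p of up to 0.102. Cyc1, cytochrome c1, overlapped slightly, at 13.95 ± 0.053 in caAkt and 14.12 ± 0.11 in wild-type hearts (SD, n = 3 arrays each), and was not called (-0.17, 95% interval -0.34 to 0.0035, adjusted p = 0.134, limma).

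Of the small subunits around the catalytic core, Uqcrq, Uqcr10 and Uqcr11 were lower. Uqcr11 had signals of 13.57, 13.50 and 13.52 on the caAkt arrays against 13.86, 13.85 and 13.79 on the wild-type arrays. These groups were separate, and the log2 fold change of -0.30 ± 0.065 (adjusted p = 0.00778, limma) was called without each array in turn. Uqcrq, at 13.42 to 13.47 in caAkt and 13.67 to 13.73 in wild-type hearts without overlap, gave -0.26 ± 0.064 (adjusted p = 0.0154, limma) and lost its call when wild-type replicate 2 was left out (adjusted p = 0.0650). Uqcr10, at 13.32 to 13.37 in caAkt and 13.53 to 13.68 in wild-type hearts and also without overlap, gave -0.26 ± 0.069 (adjusted p = 0.0197, limma), a call kept without caAkt replicate 3 or wild-type replicate 3 and lost without any of the others, at an adjusted p of up to 0.0648. Uqcrh (-0.18 ± 0.070, adjusted p = 0.0796, limma) and Uqcrb (-0.026 ± 0.073, adjusted p = 0.820, limma) were not called, and Uqcrb lay near the top of the scale at 15.07 to 15.11 in caAkt and 15.01 to 15.19 in wild-type hearts.

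Ttc19 acts in the late assembly and upkeep of complex III around the Rieske protein and fell furthest of these 12 genes. Its signals were 8.89, 8.87 and 9.03 on the caAkt arrays against 9.75, 9.64 and 9.54 on the wild-type arrays. The groups lay far apart beside their scatter, with a log2 fold change of -0.72 ± 0.080 (adjusted p = 0.000188, limma), a signal 39.1% lower. Its other probe sets were lower too, with log2 fold changes of -0.49 ± 0.092 and -0.30 ± 0.081 (adjusted p = 0.00571 and 0.0296 over all probe sets). Bcs1l, the translocase that puts the Rieske protein in place, overlapped between the groups at 9.76 to 9.85 in caAkt and 9.70 to 9.90 in wild-type hearts, with a difference of 0.036 (95% interval -0.13 to 0.21, adjusted p = 0.754, limma). With arrays centred on cardiomyocyte markers it was higher (0.22, adjusted p = 0.0378).

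Cycs, the gene of the mobile carrier cytochrome c, overlapped between the groups at 14.27 to 14.55 in caAkt and 14.34 to 14.67 in wild-type hearts and was not called (-0.086 ± 0.11, adjusted p = 0.584, limma). Of its 3 other probe sets, the dimmest, with a signal near 7, was called lower (-0.38 ± 0.086, adjusted p = 0.0138 by limma over all probe sets). The one near 13.5 did not overlap between the groups but was not called (-0.33 ± 0.12, adjusted p = 0.0855). The one near 14.3 overlapped and was not called (-0.047 ± 0.095, adjusted p = 0.774).

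In ATP synthase 6 of 17 genes were lower, with a median log2 fold change of -0.14. When the probe sets of a gene were averaged, 10 of 17 were lower, and 2338 of 18193 over all genes. Such averages take in dim probe sets, as one of Atp5g1 with a signal near 6. Atp5b, the catalytic beta subunit of F1, overlapped between the groups at 14.83 to 14.88 in caAkt and 14.84 to 14.93 in wild-type hearts, a difference of -0.047 (95% interval -0.19 to 0.10, adjusted p = 0.632, limma). Atp5a1, the alpha subunit, had signals of 14.53, 14.54 and 14.55 on the caAkt arrays against 14.74, 14.77 and 14.67 on the wild-type arrays. Its groups did not overlap, but the log2 fold change of -0.19 ± 0.065 was not called (adjusted p = 0.0616, limma); with the mean of its probe sets it was (-0.27, adjusted p = 0.0267).

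In the central stalk, which turns inside the head, Atp5c1 (gamma) and Atp5e (epsilon) were lower. Atp5e had signals of 13.20, 13.11 and 13.07 on the caAkt arrays against 13.70, 13.69 and 13.47 on the wild-type arrays. All caAkt values lay below the wild-type ones, with a log2 fold change of -0.49 ± 0.083 (adjusted p = 0.00194, limma), a signal 29.0% lower. Atp5c1, whose groups did not overlap at 14.23 to 14.35 in caAkt and 14.41 to 14.69 in wild-type hearts, gave -0.28 ± 0.088 (adjusted p = 0.0410, limma), and among the fits without 1 array this call was kept only without wild-type replicate 3, with an adjusted p of up to 0.134 in the others. Atp5d (delta) overlapped between the groups with a difference of 0.011 (95% interval -0.14 to 0.17, adjusted p = 0.924, limma).

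The c subunit, which builds the membrane ring, is encoded by Atp5g1, Atp5g2 and Atp5g3, whose mature proteins are the same behind different import sequences. Atp5g2 had signals of 12.96, 12.94 and 12.91 on the caAkt arrays against 13.47, 13.46 and 13.44 on the wild-type arrays. Both groups were tight and far apart, with a log2 fold change of -0.52 ± 0.063 (adjusted p = 0.000308, limma), a signal 30.1% lower.

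Atp5g1 had signals of 14.60, 14.59 and 14.55 on the caAkt arrays against 14.75, 14.73 and 14.67 on the wild-type arrays, which did not overlap but were not called (-0.14 ± 0.064, adjusted p = 0.146, limma). Atp5g3 had signals of 14.69, 14.71 and 14.65 on the caAkt arrays against 14.80, 14.82 and 14.62 on the wild-type arrays, which overlapped (-0.064 ± 0.076, adjusted p = 0.567, limma). The log2 fold change of Atp5g2 minus that of Atp5g1 was -0.38, and minus that of Atp5g3 it was -0.45. For both pairs the within-array differences did not overlap between genotypes (exact permutation p = 0.1, two-sided, the smallest that 3 against 3 arrays can give, and 0.15 adjusted over 3 pairs). For Atp5g1 minus Atp5g3 the difference was -0.074 (exact permutation p = 0.2, adjusted 0.2) with overlap. The Atp5g1 and Atp5g3 probe sets lie above a signal of 14, where falls were smaller among the 35 genes, and that of Atp5g2 lies below it; the part of this in the differences was not tested. Another Atp5g1 probe set, of far lower signal (near 6), gave -0.85 ± 0.15 (adjusted p = 0.00338 over all probe sets), so the probe sets of Atp5g1 did not share a call.

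The peripheral stalk holds the F1 head still against the turning ring. Atp5j, coupling factor 6, had signals of 13.62, 13.61 and 13.63 on the caAkt arrays against 14.02, 14.05 and 13.97 on the wild-type arrays. The caAkt arrays were nearly alike and lay below the wild-type arrays, with a log2 fold change of -0.39 ± 0.063 (adjusted p = 0.00155, limma). Atp5s, known as coupling factor B, had signals of 9.39, 9.31 and 9.25 on the caAkt arrays against 10.22, 10.15 and 9.83 on the wild-type arrays. The wild-type arrays scattered more, yet the groups did not overlap, and the log2 fold change of -0.75 ± 0.11 (adjusted p = 0.000702, limma), a signal 40.4% lower, was the largest fall of the 35 genes.

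The other 3 genes listed under peripheral stalk and coupling were not called by limma. Atp5o, the subunit that ties the stalk to the head, gave -0.20 ± 0.079 (adjusted p = 0.0893) without overlap of the groups, and passed without wild-type replicate 3 (-0.27, adjusted p = 0.0342). Atp5f1 (subunit b) gave -0.14 ± 0.083 (adjusted p = 0.257) and Atp5h (subunit d) -0.11 ± 0.077 (adjusted p = 0.312), both with overlap.

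Among the small membrane subunits, Atp5k (subunit e), which takes part in pairing ATP synthases, had signals of 13.87, 13.93 and 13.95 on the caAkt arrays against 14.17, 14.22 and 14.12 on the wild-type arrays. The groups did not overlap, with a log2 fold change of -0.25 ± 0.067 (adjusted p = 0.0198, limma), a call lost without caAkt replicate 1 (adjusted p = 0.0636) or wild-type replicate 2 (0.0800). Atp5j2 (subunit f, -0.083) and Atp5l (subunit g, -0.030) overlapped and were not called. Atpif1, the inhibitor that blocks ATP hydrolysis when the proton gradient fails, overlapped at 12.11 to 12.33 in caAkt and 12.07 to 12.27 in wild-type hearts, a difference of 0.083 (95% interval -0.11 to 0.28, adjusted p = 0.505, limma). With arrays centred on cardiomyocyte markers it was higher (0.27, adjusted p = 0.0201).

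The calls went with the position of the probe set on the signal scale. Of 19 genes with a mean signal of at least 14, 3 were lower, namely Uqcrfs1, Atp5c1 and Atp5k, and of all genes in that range 15 of 94 were (15.96%). Of 9 genes between 13 and 14, 9 were lower, and of all genes in that range 59 of 191 (30.9%). Between 12 and 13 lay Sdhc, which was lower, and Atpif1, which was not called. Below 12 lay Atp5s and the 4 assembly factors, of which 3 of 5 were lower. The shares over all genes in these lower ranges were not counted. The median log2 fold change was -0.14 at 14 and above and -0.33 between 13 and 14. Over all genes in those ranges it was -0.089 and -0.0050, in the opposite order. Over the 35 genes, which share arrays, wild-type signal and log2 fold change had a Pearson r of 0.43 and a Spearman rho of 0.51, or 0.24 and 0.42 without the 2 genes of lowest signal.

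**Figure D2:**
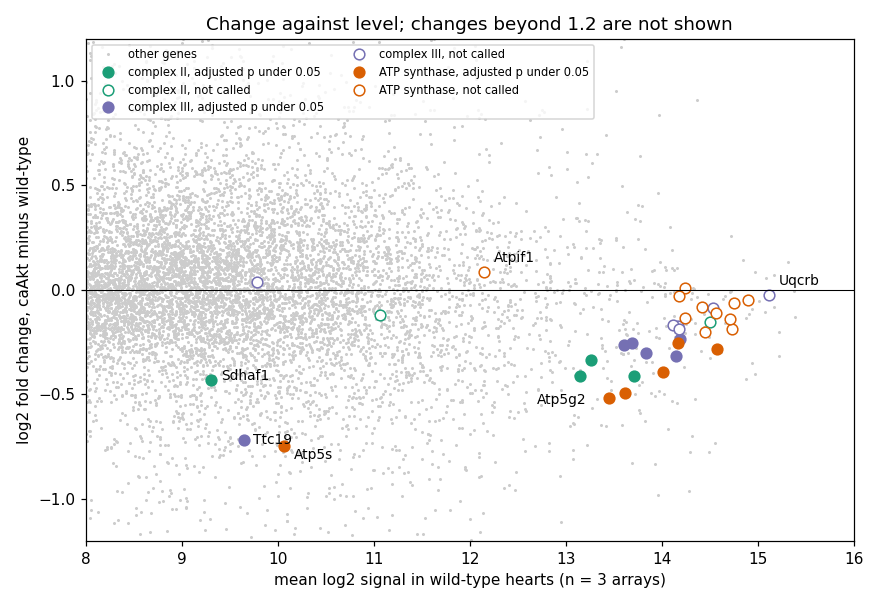
Log2 fold change (caAkt minus wild-type) against mean log2 signal in wild-type hearts for the 35 genes, over the other genes in grey. Uqcrb lies at -0.026 at the right end, and Ttc19 and Atp5s at -0.72 and -0.75 toward the left; with arrays centred on cardiomyocyte markers all points shift up by 0.19.

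Probe sets of the same gene were compared to see this without a comparison of genes. There were 16 dimmer probe sets with a mean signal above 10, in 14 genes. Of these, 12 had a more negative log2 fold change than the brightest probe set of the gene, a count not made over all genes. The median difference from the brightest was only -0.047. Lower were 5 of the 16, where 8.76% of all probe sets were. That share includes probe sets of any signal and is not matched to signals above 10. Over dimmer probe sets of any signal, 21 of 35 were more negative than the brightest and 14 were not. For Uqcrb the dimmer one gave -0.31 ± 0.095 (adjusted p = 0.0524 over all probe sets), against -0.026 at the brightest. For Atp5o it gave -0.54 ± 0.16 (adjusted p = 0.0410 over all probe sets), against -0.20.

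The dimmer probe set of Atp5f1 was lower as well (-0.26 ± 0.074, adjusted p = 0.0361 over all probe sets, against -0.14). The 4 exceptions above a signal of 10 belonged to Sdhc, Uqcrh, Cycs and Atp5k. A further Cycs probe set gave -0.33 ± 0.12 (adjusted p = 0.0855) and a further Atp5k one -0.47 ± 0.074 (adjusted p = 0.00225, limma over all probe sets). With the brightest probe set under 14 in place of the brightest of all, 28 of the 35 genes had a value, 20 were lower and the median was -0.33. Over all genes 2247 of 18150 were lower in that setting. Probe sets that share sequence with other transcripts may read those too. What part the upper end of the scale has in these differences was not tested.

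**Figure D3:**
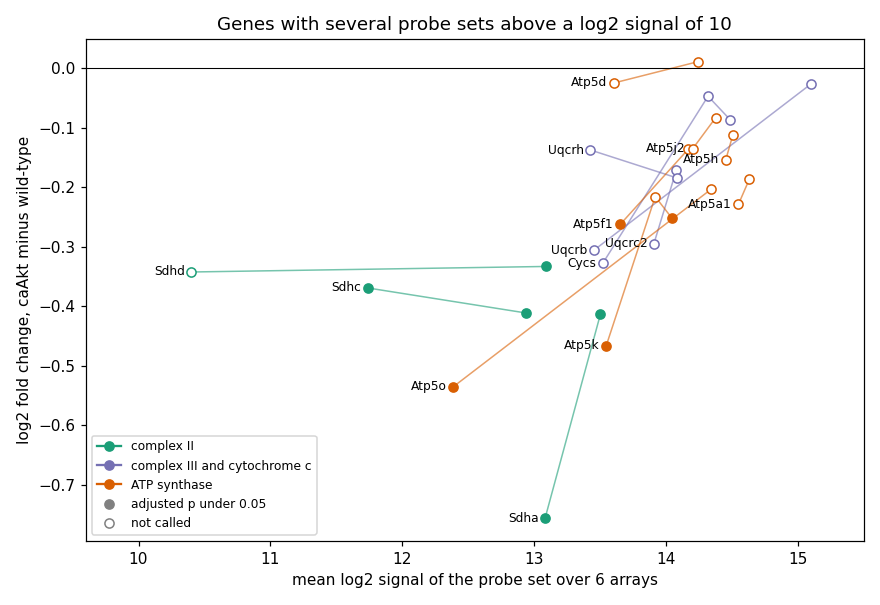
Log2 fold change (caAkt minus wild-type) against mean log2 signal of each probe set above a signal of 10, for genes with several, with lines joining probe sets of a gene. The dimmer probe set is the more negative in 12 of 16 comparisons with the brightest, with a median difference of -0.047. Uqcrb, Atp5o and Sdha show larger differences.

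Among the arrays, wild-type replicate 3 stood apart from the rest of its group. It was the lowest wild-type array for 33 of the 35 genes. The median deviation of the ATP synthase genes from their mean over the 6 arrays was -0.031 there, below 0 like those of the caAkt arrays, against 0.13 on wild-type replicates 1 and 2. For complex II it was 0.11, above every caAkt array. The summed cardiomyocyte markers and the highest signal were also lowest there within the wild-type group (18.15 and 15.32). Without it the median of the 35 genes was -0.24.

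**Figure D4:**
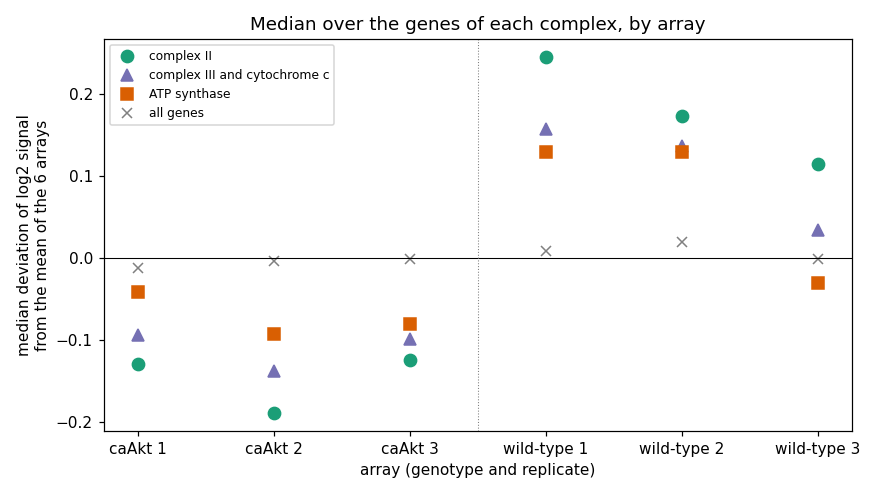
Median deviation of the log2 signal from the mean over 6 arrays, for the genes of each complex, on each array. The caAkt arrays lie below 0 for each complex and the wild-type arrays above it, except for ATP synthase on wild-type replicate 3 (-0.031); centring on cardiomyocyte markers would move each array by a constant.

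Of 16 partner genes, listed by function, 7 were lower and 1 higher by limma, with a median log2 fold change of -0.24. Tmem70 and Atpaf1, which help to assemble ATP synthase, gave -0.76 ± 0.10 (adjusted p = 0.000342) and -0.70 ± 0.10 (adjusted p = 0.000737). Uqcc1, an assembly factor of complex III, gave -0.46 ± 0.068 (adjusted p = 0.000964). Cyct, the testis form of cytochrome c, gave -0.66 ± 0.070 at a signal of only 4.60 to 4.70 in caAkt and 5.27 to 5.39 in wild-type hearts. The gene that was higher, named after its value was seen, was Slc25a5, a carrier of adenine nucleotides (0.34 ± 0.074, adjusted p = 0.00830). Slc25a3 and Slc25a4, the other listed carriers of phosphate or adenine nucleotides, were not called (-0.16 and -0.11, adjusted p = 0.122 and 0.286, limma).

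In the neighbouring complexes, complex I had 21 of 34 subunit genes lower and 0 higher (median -0.30), and complex IV 3 of 14 lower and 2 higher (median -0.13). The difference between these lists and the 35 genes was not tested. In complex IV, Cox8b (-0.70 ± 0.077, adjusted p = 0.000175, limma) and Cox7a1 (-0.54 ± 0.078, adjusted p = 0.000834) were lower, while Cox6a1 (0.54 ± 0.076, adjusted p = 0.000702) and Cox8a (0.37 ± 0.071, adjusted p = 0.00385) were higher. No gene of complexes II and III or ATP synthase was called higher in that fit.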

How the data were processed

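The deposited table holds log2 values, 1 per probe set and array, which the authors made with RMA in the R package affy, per the submitters' processing notes; versions are not given in the sources used here. RMA corrects the background, quantile-normalizes the arrays and summarises probes, so changes are relative to the bulk of the array. Of 45101 probe sets, 34945 had 1 gene symbol in the platform annotation, 932 several, 9160 none and 64 were controls. Each gene was given by its probe set of highest mean, and dim probe sets were kept. The test was eBayes of limma 3.58.1 (R 4.3.3, two-sided, 4 residual degrees of freedom), adjusted over 18193 genes or, where stated, over all probe sets.

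The 35 genes, the other lists and the tests were chosen with earlier results of these data known. The rule for named genes took all 35 genes, Akt1 and up to 2 genes per marker list. From the partners and complexes I and IV it took up to 4 genes of smallest p each. Slc25a3, Slc25a4 and Slc25a5 were named outside the rule. On simulated data for this comparison with 18193 genes, 5.97%, 58.2% and 97.0% of changes of 0.25, 0.5 and 1 on the log2 scale were called. Only 67, 67 and 66 genes were changed at these sizes, whereas 5183 genes were called in the data. With fewer changed genes the adjustment is stricter, so these shares do not give the rate of detection in the data. The deviations of arrays of the same replicate number had an r of 0.27, 0.031 and -0.12 for replicates 1, 2 and 3. The highest r with another number was -0.012 for replicate 1 and 0.23 for replicates 2 and 3. Alternatives were other summaries of probe sets, normalizations, limma settings and thresholds, leaving out each array and, added after the data were seen, centring on cardiomyocyte markers. The labels give no batch, and 3 arrays per group limit the precision. Protein sequences were not used here.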

Additional observations from a re-analysis of the deposited data

How the results depend on the processing

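The counts of lower genes without 1 array ran from 11 to 18 of the 35, 4 in complex II with each array left out, 3 to 7 in complex III with cytochrome c and 4 to 7 in ATP synthase, and 0 were higher in each of these fits. The median log2 fold change ran from -0.24 to -0.16. Over all genes 1615 to 2222 were lower and 2369 to 2605 higher. Array weights gave the highest counts, 21 of the 35 and 9 of complex III, with 2967 lower over all genes. At a threshold of 0.01, 10 of the 35 genes, 3 of complex III and 1270 of all genes were lower. With probe sets averaged per gene, 10 ATP synthase genes and 2338 of all genes were lower, and the median was -0.23. With probe sets that have no suffix the median was -0.23. With the brightest under 14 it was -0.33, with 20 of 28 measured genes and 10 ATP synthase genes lower, and 2247 of 18150 over all genes. Renewed quantile normalization gave -0.40 for Atp5g2 minus Atp5g1, and 2708 genes lower against 2669 higher. Of the replicate numbers, only 1 had a higher r within the number than with the others. With a replicate block 15 of the 35 genes and 2238 of all genes were lower, the call of Uqcrfs1 being lost (adjusted p = 0.0612 by limma). Centring on cardiomyocyte markers, chosen after the data were seen, gave 6 lower and 2 higher of the 35, 2, 1 and 3 lower in complex II, complex III and ATP synthase, a median of 0.0016, and 1013 lower and 5944 higher over all genes. It turned these genes, none of them called, to positive: Sdhb 0.036, Sdhaf2 0.071, Uqcrc2 0.017, Cyc1 0.018, Uqcrb 0.16, Uqcrh 0.0036, Cycs 0.10, Atp5a1 0.0016, Atp5b 0.14, Atp5g1 0.050, Atp5g3 0.12, Atp5f1 0.052, Atp5h 0.076, Atp5j2 0.11, Atp5l 0.16. Other changes of sign, all of genes that were not called, were Bcs1l -0.026, Atp5l 0.0035 (renewed quantile normalization), Atp5d -0.0069, Atpif1 -0.011 (probe sets averaged), Atp5d -0.025 (brightest probe set under 14), Atp5d -0.019 (array weights), Atpif1 -0.11 (plain probe sets). Without 1 array, Uqcrb ran from -0.082 to 0.0088, Bcs1l ran from -0.0049 to 0.091, Atp5d ran from -0.026 to 0.041, Atp5l ran from -0.072 to 0.0072. Over all settings but that centring, 10 of the 16 called genes were lower in each setting that gave them a value, and 6 with that centring included. Sdhc, Uqcrc1 and some other genes had no value in 1 setting. The cause of these changes was not tested.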
